A study of Homo sapiens with 18 samples.

Results

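The 1164 windows described here were those in which PEA1, a platinum-sensitive ovarian cancer cell line, had the most open chromatin of 6 lines. They were chosen by their measured levels among 86965 windows of 1 kb on chromosomes 1 to 22, out of 89428 windows in the whole table. A window entered where the mean of the 3 PEA1 libraries was over 2 FPKM (fragments per kilobase of window, scaled to the reads of the library) and at least 2 times the highest of the means of the 5 other lines. The difference between PEA1 and the other lines was therefore set by the choice and is given below as a description, without a test. Read literally, "open only in PEA1" held for part of the windows: all 5 other lines had means under 1 FPKM in 618 of them (53.1%) and under 0.5 FPKM in 107 (9.19%), and the highest mean of any other line was 4.8 FPKM.

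Chromatin accessibility had been measured by ATAC-seq, in which a transposase inserts sequencing adapters into DNA that is not packed away in nucleosomes, in 3 libraries of each line. PEA1 and PEA2 were derived from ascites of 1 patient with high-grade serous ovarian cancer, PEA1 before platinum treatment and PEA2 after relapse, and PEA2 is platinum resistant. PEO1 (sensitive) and PEO4 (resistant) came from another patient, in both cases after platinum therapy had begun, before and after clinical resistance. A2780 (sensitive) was labelled as endometrial or ovarian, and CP70 is its resistant derivative selected in culture. All lines were grown in RPMI-1640 medium with 10% serum, with no drug named in the growth protocol. Each group was thus 1 established line, so that a difference between lines contained everything by which the lines differ, DNA copy number included.

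Most cell-type-restricted open chromatin lies away from promoters, at enhancers in introns and between genes, where transcription factors bind short DNA motifs. RUNX factors, which act in the development of blood, bone and epithelia, are examples of such factors. PAX8 and WT1 are markers used in the diagnosis of serous cancers. Vimentin, encoded by VIM, is the intermediate filament protein of mesenchymal cells and of epithelial cells that have taken on mesenchymal features.

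PEA1 carried open promoters of part of the markers of ovarian carcinoma. The PAX8 promoter window measured 3.43, 3.24 and 3.45 FPKM in the 3 PEA1 libraries, and the WT1 window 2.27, 2.52 and 1.10 FPKM. Of 13 promoters in the Müllerian and serous lineage list, 6 were over 2 FPKM in PEA1. Their median was 1.97 FPKM in PEA1, 0.896 FPKM in A2780, 1.42 FPKM in CP70, 1.91 FPKM in PEA2, 4.09 FPKM in PEO1 and 3.52 FPKM in PEO4. The keratin promoters of KRT8 and KRT18 had PEA1 means of 2.57 and 2.32 FPKM, whereas KRT7 (0.767 FPKM) and the epithelial adhesion gene EPCAM (1.10 FPKM) were low. Of 21 epithelial promoters in the list, 5 were over 2 FPKM in PEA1, with a median of 1.2 FPKM, against medians of 2.27 FPKM in PEA2, 6.15 FPKM in PEO1 and 8.14 FPKM in PEO4. Of 15 mesenchymal promoters, 11 were over 2 FPKM in PEA1. The median was 3.27 FPKM in PEA1, 1.72 FPKM in A2780, 1.68 FPKM in CP70, 2.74 FPKM in PEA2, 5.05 FPKM in PEO1 and 3.74 FPKM in PEO4. Among markers of other cell types, 1 leukocyte promoter (CD14, PEA1 mean 2.28 FPKM) and 1 endothelial promoter (KDR, 2.71 FPKM) were among the windows of the table, and neither was highest in PEA1. The fibroblast and mesothelial list had 6 promoters there, of which 1 was over 2 FPKM in PEA1, at 4.52 FPKM. The median of the 6 was 0.994 FPKM in PEA1. It was higher in the other lines, from 1.05 FPKM in A2780 to 4.55 FPKM in PEO1.

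The sequences below show matches to the RUNX motif, which were commoner in these windows than in the rest of the table. Each is a stretch of 140 bases of the GRCh37 reference, plus strand, 5′ to 3′, around 1 match in a member window; capitals mark the match, on either strand. The motif searched was TGTGGTT, on both strands. Matches were present in 377 of the 1164 members (32.4%) and 16.8% of all autosomal windows. The first 4 sequences come from the 10 windows that lead by ratio of PEA1 to the other lines, described below, at chr4:84061172-84061311 near PLAC8, chr12:95377538-95377677 in NDUFA12, chr17:705064-705203 in NXN and chr17:53361058-53361197 in HLF. The last comes from the list of receptor tyrosine kinases, at chr15:99319972-99320111 in IGF1R, whose window had 3 matches. Only windows with a match are shown. Among the 10 leading windows, those near KLF6, GTPBP4 and FAM72B and in PRPF8 had none.
PLAC8: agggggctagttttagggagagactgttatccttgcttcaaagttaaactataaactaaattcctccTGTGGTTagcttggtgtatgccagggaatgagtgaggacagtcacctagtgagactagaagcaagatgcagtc
NDUFA12: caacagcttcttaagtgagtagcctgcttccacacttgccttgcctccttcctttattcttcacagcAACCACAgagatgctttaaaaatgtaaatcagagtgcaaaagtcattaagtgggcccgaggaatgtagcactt
NXN: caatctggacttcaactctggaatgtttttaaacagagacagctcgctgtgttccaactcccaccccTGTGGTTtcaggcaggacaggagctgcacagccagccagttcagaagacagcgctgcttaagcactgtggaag
HLF: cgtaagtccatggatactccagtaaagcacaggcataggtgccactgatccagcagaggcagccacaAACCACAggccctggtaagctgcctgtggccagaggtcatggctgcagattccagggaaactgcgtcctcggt
IGF1R: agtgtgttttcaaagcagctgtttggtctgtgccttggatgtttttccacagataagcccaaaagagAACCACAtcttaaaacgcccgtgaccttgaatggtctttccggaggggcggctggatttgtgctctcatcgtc
A match of this kind is a description of the letters in the window, and the binding of a factor was not measured.

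Members made up 1.34% of autosomal windows and 4.29% of the 27133 autosomal windows over 2 FPKM in PEA1. The grid moved in steps of 900 bp, so that neighbouring windows shared 100 bp, and the 1164 members formed 951 separate loci, of which 763 were single windows, 167 were pairs, 17 were runs of 3 and 4 were runs of 4. The same rule applied to the other lines gave 128 windows for A2780, 396 for CP70, 5468 for PEA2, 10658 for PEO1 and 4598 for PEO4. The number for PEA1 was therefore the third lowest. The order of these counts was that of the lines' levels over the whole table, except that PEO4 and PEA2 changed places: the median over all autosomal windows was highest in PEO1 (2.83 FPKM) and PEO4 (2.24), followed by PEA2 (1.79), PEA1 (1.22), CP70 (0.852) and A2780 (0.683).

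Reads per library, recovered from the steps of the deposited values, numbered 20856347 to 32100337 in PEA1 and 8972042 to 60495462 over the 18 libraries, and 8.37% to 40.8% of them fell in the windows of the table. PEA1 replicate 3 was the shallowest of its line and stood below the other PEA1 libraries. Its median over the members was 2.25 FPKM, against 2.92 and 3.02 FPKM in replicates 1 and 2. It was the lowest PEA1 library in 1016 of the 1164 members (and in 89.6% of all autosomal windows over 2 FPKM), so that its lower level was not particular to the members. Without it the rule took in 1450 windows, 1148 of them among the 1164.

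Levels in the members were moderate rather than extreme. The PEA1 mean ran from 2.00 to 14.5 FPKM, with a median of 2.70 FPKM and quartiles of 2.31 and 3.45 FPKM. The SD of the 3 PEA1 libraries was 18.6% of the mean in the median member. Median reads per member window were 91, 97 and 47 in the PEA1 libraries and 3, 4 and 3 in the PEO1 libraries, the shallowest. The low levels in PEO1 were thus near the limit of detection: 311 members had 3 reads or fewer in every PEO1 library, against 34 in PEO4, 10 in PEA2, 6 in CP70 and 0 in A2780.

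The ratio of the PEA1 mean to the highest other mean had a median of 2.85, with quartiles of 2.31 and 3.89 and a maximum of 15.1. It reached 3 in 527 members (45.3%), 5 in 154 (13.2%) and 10 in 6. Every PEA1 library lay above every library of the other lines in 1155 members (99.2%), against 2158 (7.95%) of the 27133 autosomal windows over 2 FPKM; the choice itself fixed this difference. In 731 members every PEA1 library was over 2 FPKM.

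**Figure D1:**
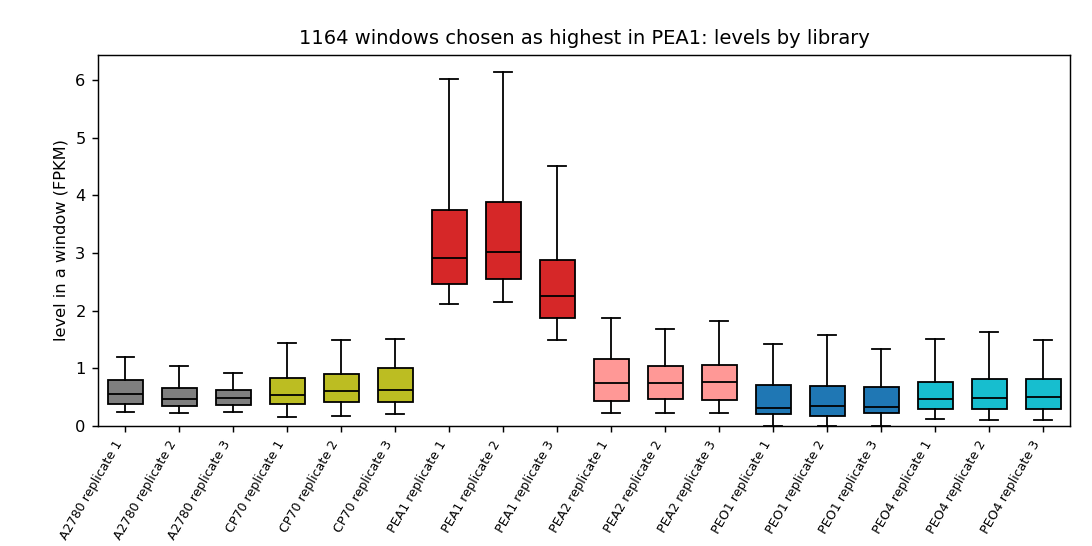
Level of the 1164 members in each of the 18 libraries, in FPKM. Boxes span the quartiles with the median as a line, and whiskers run from the 5th to the 95th percentile of the members. The 3 PEA1 boxes stand above all others, as the choice required, and PEA1 replicate 3 (median 2.25 FPKM) is the lowest of them.

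PEA2, the line from the same patient, was most often the next highest. It was the highest other line in 492 members (42.3%), followed by CP70 in 352 (30.2%), PEO4 in 160, PEO1 in 99 and A2780 in 61. Over all autosomal windows above 2 FPKM in PEA1 this order was different, with PEO1 the highest other line in 43.0%, PEO4 in 38.7%, PEA2 in 13% and CP70 in 4.91%. The rule removed windows that were high in PEO1 or PEO4, which had the highest levels in the table. Median levels at the members were 0.749 FPKM in PEA2, 0.606 in CP70, 0.505 in A2780, 0.463 in PEO4 and 0.364 in PEO1.

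How far the choice carried over to other libraries was described by choosing the windows again from 2 replicate numbers of every line and reading the libraries left out. With replicate 1 left out, 1033 windows were chosen and PEA1 was the highest line in the left-out libraries in 99.7% of them. The corresponding values were 929 windows and 100% for replicate 2, and 1447 windows and 97.5% for replicate 3. For comparison, 27133 autosomal windows had a PEA1 mean over 2 FPKM, taken over all 3 libraries, the left-out one included. PEA1 was the highest line in the left-out libraries in 15.9%, 18.7% and 11.7% of these. The 2-fold difference was kept less often. In the left-out libraries PEA1 was at least 2 times the next line in 81.3%, 87.8% and 53.6% of the chosen windows for replicates 1, 2 and 3. The shares over the same 27133 windows were 4.44%, 5.31% and 2.96%. The lowest share belonged to replicate 3, whose PEA1 library was the low one.

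At the 2-fold limit the members shaded into windows outside. Just inside, a window 20.3 kb from DEGS1 (chr1:224390701-224391700) measured 3.65 ± 0.62 FPKM in PEA1 (SD, n = 3) against 1.82 ± 0.07 FPKM in PEO1, a ratio of 2.003. The promoter window of the lysophosphatidic acid receptor LPAR1 and a window 109 kb from SPRY4 lay equally close inside. Just outside, an intron window of PAFAH1B1 (chr17:2538001-2539000) measured 2.17 ± 0.20 FPKM in PEA1 and 1.09 ± 0.42 FPKM in PEA2, a ratio of 1.999, and windows near ZNF608 and in FRMD5 were the next. Windows on both sides of the limit differed by less than the spread between libraries.

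Windows were ordered by the ratio after 0.1 FPKM had been added to both means, among members whose libraries did not overlap those of any other line, and windows within 10 kb of one already taken were passed over. The first 10 by this order were 4 introns, 5 intergenic windows and the 3′ UTR of CFAP298, a gene needed for motile cilia. The largest ratio of all was found 25.5 kb from the start of PLAC8 (chr4:84060901-84061900), where the PEA1 libraries measured 6.02, 4.55 and 3.31 FPKM. In the same window A2780 measured 0.296, 0.225 and 0.397 FPKM, CP70 0.152, 0.359 and 0.251, PEA2 0.495, 0.173 and 0.133, PEO1 0.202, 0.436 and 0.111, and PEO4 0.116, 0.096 and 0.149. The lowest PEA1 library thus lay well above the highest other library, PEA2 replicate 1.

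A window 76.4 kb from KLF6, a Krüppel-like transcription factor (chr10:3903301-3904300), measured 5.0, 5.26 and 3.64 FPKM in PEA1. No other library was above 0.544 FPKM there (CP70 replicate 3), and PEO1 replicates 2 and 3 were at 0. On the same chromosome, a window 14.2 kb from GTPBP4, which encodes a GTPase of ribosome assembly (chr10:1019701-1020700), measured 7.18, 7.66 and 6.19 FPKM in PEA1 and at most 0.898 FPKM elsewhere (CP70 replicate 2). Both windows kept their separation in all 3 PEA1 libraries.

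The most open of all members lay 211 kb from TRIB1, which encodes a pseudokinase that directs proteins to the ubiquitin ligase COP1 (chr8:126653401-126654400). It measured 15.8, 15.3 and 12.4 FPKM in PEA1. PEO4 was next with 1.74, 1.68 and 1.34 FPKM, CP70 measured 0.833, 1.26 and 1.05, PEO1 1.11, 0.785 and 0.557, PEA2 0.769, 1.04 and 0.444, and A2780 0.610, 0.406 and 0.562. The PEA1 level was 9.12 times that of PEO4, and the ranges did not overlap.

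Windows within genes included an intron of HLF, which encodes a bZIP factor of the PAR family (chr17:53361001-53362000), at 7.11, 7.17 and 5.61 FPKM in PEA1 and at most 1.15 FPKM elsewhere (PEA2 replicate 1). In an intron of NXN, the gene of the redox protein nucleoredoxin (chr17:704701-705700), PEA1 measured 5.86, 5.89 and 4.99 FPKM and the highest other library was A2780 replicate 1 at 0.889 FPKM. The intron windows of NDUFA12, encoding a subunit of respiratory complex I (4.90, 5.02 and 2.78 FPKM), and of PRPF8, encoding a core protein of the spliceosome (4.52, 3.93 and 3.31 FPKM), were lower in PEA1 but had ratios of 10.4 and 10.0. In the CFAP298 3′ UTR the PEA1 libraries measured 5.51, 4.77 and 3.93 FPKM, and the last of the 10, 419 kb from FAM72B, measured 3.84, 4.58 and 3.50 FPKM. All 10 windows showed the same separation, with PEA1 replicate 3 the lowest PEA1 library in 10 of 10.

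**Figure D2:**
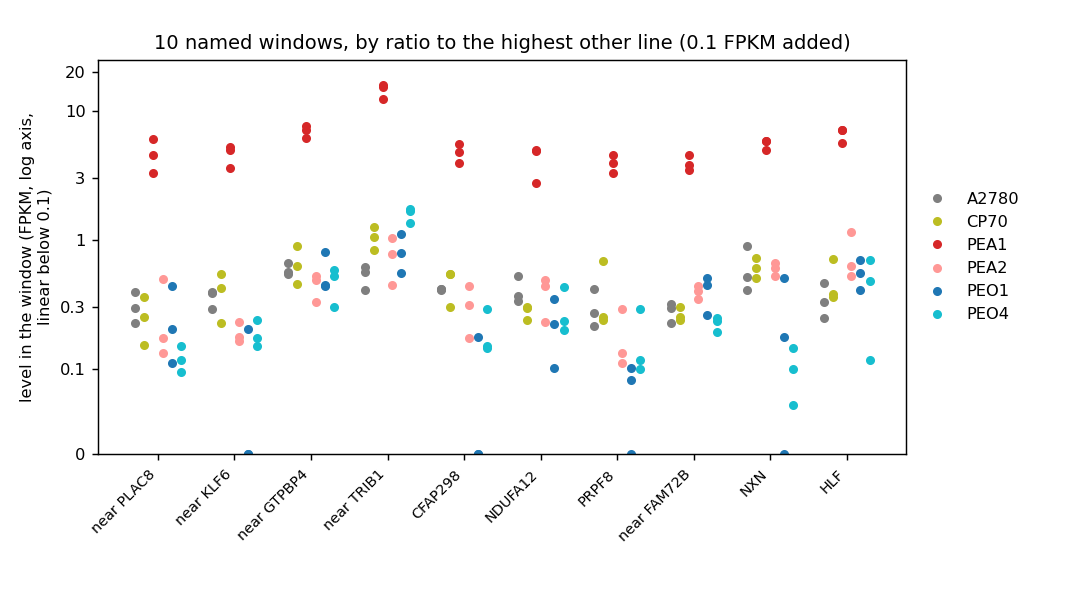
Level of every library in the 10 members that lead by the ratio of PEA1 to the highest other line (0.1 FPKM added to both means, windows within 10 kb of one taken passed over), in FPKM, on a log axis that is linear below 0.1. Each point is 1 library and colours mark the line. The red PEA1 points lie above all others in each window, from 2.78 FPKM (NDUFA12) to 15.8 FPKM (near TRIB1).

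High levels did not go with high ratios throughout. A window 84.7 kb from STC2, the gene of the secreted glycoprotein stanniocalcin 2 (chr5:172839601-172840600), measured 12.8, 12.5 and 8.49 FPKM in PEA1, but PEA2 also measured 5.06, 4.57 and 4.79 FPKM, a ratio of 2.34. An intron of the inositol monophosphatase gene IMPA2 measured 9.52, 11 and 7.34 FPKM in PEA1 and 4.4, 2.43 and 3.95 FPKM in PEA2. In both windows the lines of the shared patient were the highest pair, and their ranges did not overlap. At the end of NPRL3, which encodes a subunit of the GATOR1 complex (chr16:134101-135100), PEA1 measured 11.9, 10.8 and 7.82 FPKM and the next line was PEO1 at 2.93, 3.05 and 3.01 FPKM.

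Promoters were rare among the members. A window was called promoter-TSS where its centre lay from 1 kb upstream to 100 bp downstream of a protein-coding start, and 52 members (4.47%, 95% Wilson interval 3.42% to 5.81%) did so. This compared with 18.9% of all autosomal windows and 39.6% of those over 2 FPKM in PEA1. Introns held 628 members (54.0%) against 37.2% and 31.8%, and intergenic sequence 409 (35.1%) against 37% and 19%. The remaining members were 28 windows at transcript ends, 22 in coding exons, 19 in 3′ UTRs and 6 in 5′ UTRs. Their median distance to the nearest protein-coding start was 30.8 kb, against 18.1 kb for all autosomal windows and 0.753 kb for those over 2 FPKM. The windows over 2 FPKM are the ones that could have passed the rule, and measured against them the members were mostly distal.

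The GC content of the members had a median of 50.4%, like the 50.5% of all autosomal windows and below the 58.4% of those over 2 FPKM. CpG-rich sequence, with a GC content over 50% and an observed to expected CpG ratio over 0.6, was found in 4.38% of the members, against 23.3% and 53.8%. By the same rule for other lines it was found in 2.01% (PEA2), 6.25% (A2780), 7.71% (PEO1), 14.6% (PEO4) and 17.2% (CP70). The members with larger ratios were still less often promoters, with 6.28% promoter-TSS at ratios from 2 to 3, 2.14% from 3 to 5 and 2.60% at 5 or more.

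The 5 promoter members with the largest ratios belonged to SPAG9, SERPINF2, SULT1C2, CLU and FXYD2. In the window of CLU, which encodes the secreted chaperone clusterin (chr8:27468901-27469900), PEA1 measured 6.50, 6.79 and 5.56 FPKM. PEO4 came next at 1.4, 1.2 and 1.15 FPKM, and no library of the other lines was above 1.56 FPKM (CP70 replicate 2). At SERPINF2, encoding the plasmin inhibitor alpha-2-antiplasmin (chr17:1645201-1646200), PEA1 measured 6.12, 6.54 and 4.79 FPKM and CP70 1.06, 0.958 and 1.13 FPKM. The promoter of the sulfotransferase gene SULT1C2 measured 3.72, 3.77 and 2.40 FPKM in PEA1 and 0.682, 0.479 and 0.544 FPKM in CP70. At FXYD2, encoding a regulatory subunit of the sodium pump, PEA1 measured 3.08, 3.15 and 2.25 FPKM and CP70 0.606, 0.599 and 0.838 FPKM. The SPAG9 window, at 2.76, 3.08 and 2.06 FPKM in PEA1, belonged to an internal start 73.9 kb from the main one. PEA1 lay above all other libraries at each of these 5 promoters.

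Motif content was compared over windows whose centre lay more than 1 kb from a protein-coding start, 1085 of the members, because promoters differ in base composition. RUNX matches were found in 33.7% of distal members, against 19.5% of all distal windows and 20.9% of distal windows over 2 FPKM in PEA1. These shares are descriptions of windows chosen on the level, with no test.

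Windows chosen by the same rule for PEA2, PEO1 and PEO4 had fewer RUNX matches. RUNX was found in 21.1% of the distal PEA2 windows, 18.2% of those of PEO1 and 23.9% of those of PEO4. The KLF motif GGGTGTGG was in 14.7% of distal members, 11.3% of all distal windows and 12.7% of distal windows over 2 FPKM. The E-box CAGCTG was in 55.3%, 45.6% and 52% of these sets. The AP-1 motif TGANTCA was less common in members than in either set. It was in 36.9% of distal members, 47.1% of all distal windows and 40.1% of distal windows over 2 FPKM, and in 64.0% of the distal PEO1 windows, 52.6% of those of PEA2 and 35.2% of those of PEO4.

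The share of members with a RUNX match was higher at larger ratios, at 27.9% for ratios from 2 to 3, 35.9% from 3 to 5 and 42.2% at 5 or more. Base composition changed over these groups as well, with a median GC content of 52.3%, 49.4% and 46.6%. Other motifs also changed: TEAD matches were in 50.7%, 48.3% and 61.0%, and E-box matches in 56.8%, 55.5% and 46.1%. AP-1 matches were in 35.5%, 37.5% and 36.4%. Members in which PEA2 was the next line held RUNX in 33.9% and those in which CP70 was next in 30.1%. In the central 500 bp the shares were 19.2% of members against 9.04% of all autosomal windows.

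**Figure D3:**
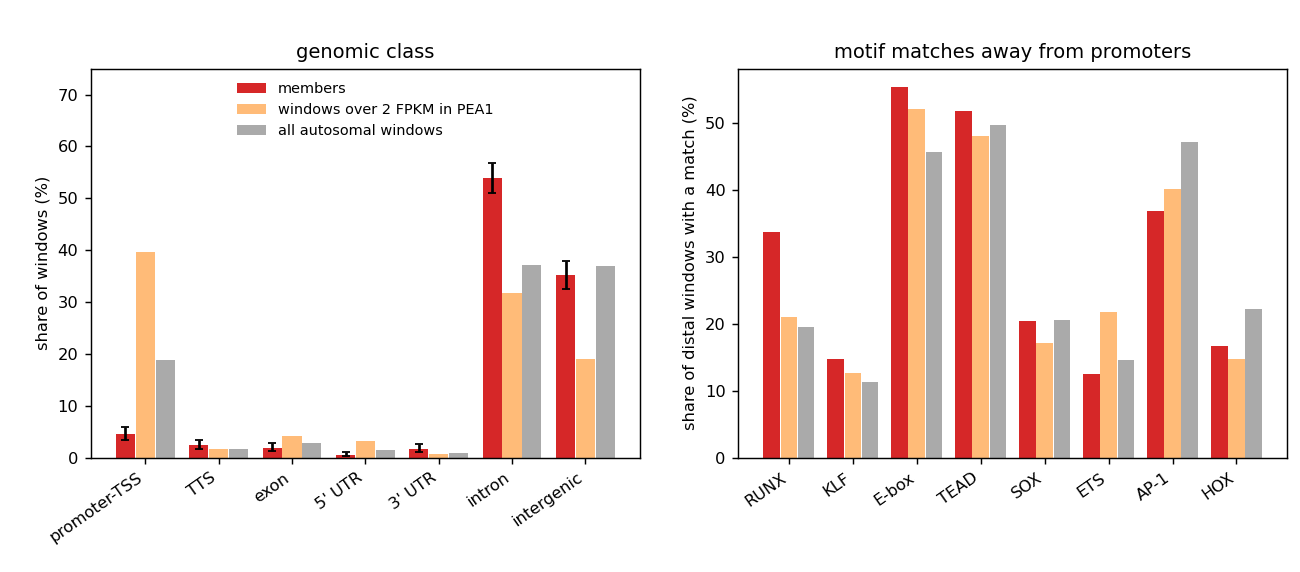
Left, share of windows in each genomic class (in %, 1 class per window, by its centre) for the 1164 members, the 27133 autosomal windows over 2 FPKM in PEA1 and all 86965 autosomal windows, with 95% Wilson intervals on the members. Right, share of windows more than 1 kb from a start that hold a match to each motif, for the same sets. Promoters take 4.47% of members, and RUNX matches were in 33.7% of distal members.

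Members were unevenly spread over the genome. Of 566 autosomal bins of 5 Mb with a window in the table, 318 held a member, and the 3 bins with the most held 138 members (11.9%). Chromosome 17 held 147 members, 3.81% of its windows, chromosome 10 held 98 (2.37%) and chromosome 16 held 64 (1.99%), whereas chromosome 3 held 23 (0.379%). The first 5 Mb of chromosome 17 alone held 77 members, 27.4% of its 281 windows.

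In that bin the whole neighbourhood stood high in PEA1. With the members left out, the median log2 ratio of PEA1 to another line was 0.63 (PEO4) to 1.5 (A2780), and it was the only one of 540 bins plotted in which the lowest of the 5 medians was above 0. Over all autosomal windows with a mean over 1 FPKM, these medians were -1.21 (PEO1), -0.97 (PEO4), -0.23 (PEA2), 0.23 (CP70) and 0.60 (A2780). A bin at the level of the genome thus lay below 0, and bins below 0 could still be raised. When the departure of each bin's median from the median over all autosomes was subtracted, 8 of the 77 members were left. The ratio of PEA1 to PEA2 was also raised across the first 5 Mb of chromosome 16 (median log2 ratio 1.37), where 45 of 712 windows were members and 16 were left. The first 5 Mb of chromosome 10 held 16 members of 142 windows, with 8 left, and the interval from 175 to 180 Mb of chromosome 5 held 16 of 383, also with 8 left. Reads per window rise with the number of DNA copies as well as with accessibility, and in these bins the contributions cannot be told apart. The ratios used for this subtraction had 0.1 FPKM added to both means, which alone, with no bin subtracted, left 1082 of the 1164 members. Over all chromosomes 662 of the 1164 (56.9%) were left after the subtraction. With the whole bin median subtracted instead, 727 (62.5%) were left.

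Members in and out of chromosome 17 both exceeded the table in RUNX matches. RUNX matches were found in 27.2% of its members and 33.1% of the others, and promoters in 8.84% and 3.83%. Of the 727 members left after the whole bin median was subtracted, 3.03% were promoters.

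**Figure D4:**
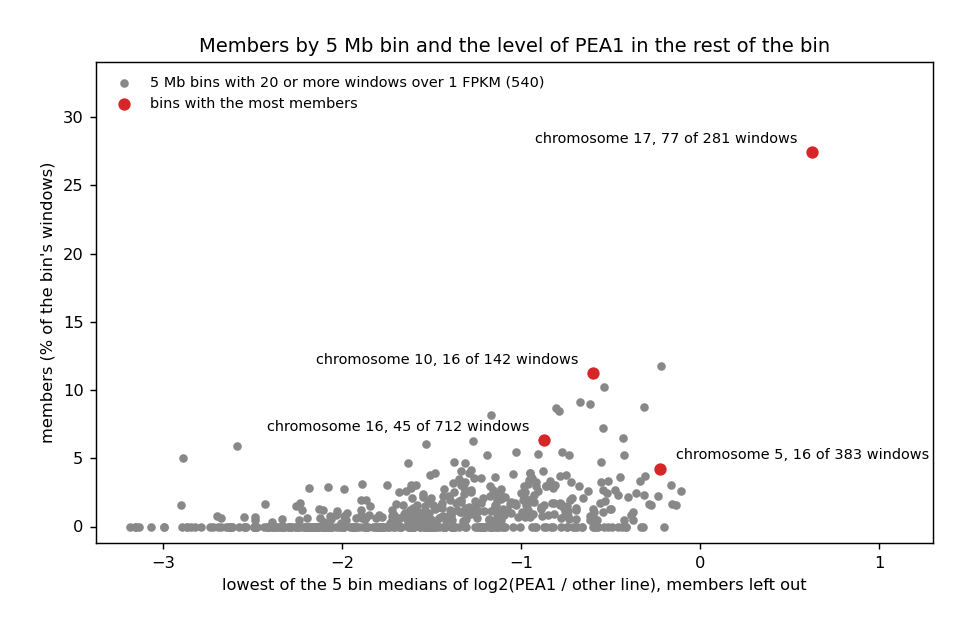
Members as a share of the windows of each 5 Mb bin (in %), against the level of PEA1 in the rest of the bin, given as the lowest of the 5 bin medians of the log2 ratio of PEA1 to another line with the members left out. Each point is 1 of 540 bins with at least 20 windows over 1 FPKM, and red marks the bins with the most members. The first 5 Mb of chromosome 17, at 27.4% and 0.63, stands apart from the others.

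The genes with the most members in their bodies repeated this pattern in part. FRMD4A, which encodes a FERM-domain scaffold of cell polarity, lies on chromosome 10 and held 12 members in 9 loci among its 34 windows. The members had a median of 2.51 FPKM in PEA1 and between 0.252 FPKM (PEA2) and 0.419 FPKM (CP70) in the lines with the lowest and highest median. NXN (8 of 10 windows), RAP1GAP2 (7 of 16), which encodes a GTPase-activating protein for Rap1, and ABR (6 of 14), which encodes a regulator of Rac, all lie in the first 5 Mb of chromosome 17. ASAP1, encoding an Arf GTPase-activating protein, held 5 of 44 and ERGIC1, encoding a membrane protein between endoplasmic reticulum and Golgi, 5 of 29. Over all 44 windows of ASAP1 the median was 2.05 FPKM in PEA1, 2.92 FPKM in PEA2, 2.10 FPKM in PEO1, 1.57 FPKM in PEO4, 0.385 FPKM in A2780 and 0.392 FPKM in CP70. In total 545 protein-coding genes held a member in the body.

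The 4 runs of 4 consecutive members lay in LZTS1, at VIM, at PDIA2 and AXIN1, and at SMTNL2. In the run at SMTNL2, a smoothelin-like gene (chr17:4486501-4490200), PEA1 means were 2.73, 6.25, 5.86 and 2.01 FPKM along the run, highest at the start of the gene, and CP70 was next in each. In the run from PDIA2, a protein disulfide isomerase gene, to the end of AXIN1, a scaffold of the WNT destruction complex (chr16:333901-337600), PEA1 means were 2.35, 6.42, 3.65 and 2.62 FPKM. The intron run of the leucine zipper gene LZTS1 (chr8:20157301-20161000) was lower, with PEA1 means of 2.01, 3.18, 2.50 and 2.71 FPKM. In the runs at SMTNL2 and PDIA2 the highest window exceeded the outer ones by more than the spread between libraries, and at LZTS1 the windows differed less.

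VIM was covered by 5 members, of which 4 formed 1 run across its start. In the window at its start (chr10:17270101-17271100) PEA1 measured 10.5, 11.5 and 8.53 FPKM. CP70 measured 5.83, 4.13 and 3.69 FPKM, PEO4 3.37, 3.70 and 2.89, A2780 2.44, 2.93 and 2.00, PEO1 1.92, 1.75 and 1.56, and PEA2 1.7, 1.5 and 1.6. PEA1 and PEA2, from the same patient, had the highest and the lowest mean, and the PEA2 libraries overlapped those of PEO1. In the next window, in an exon, PEA1 measured 11.7, 12 and 9.06 FPKM and PEA2 1.70, 1.27 and 1.95 FPKM, and 2 windows upstream and 1 window 11.2 kb downstream of the start were members at lower levels. With the level of the 5 Mb bin subtracted, the lowest log2 ratio of PEA1 to another line was 0.53, 0.40, 0.55 and 0.80 along the run. All 4 windows of the run then fell below the 2-fold limit, which is 1 on this scale.

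**Figure D5:**
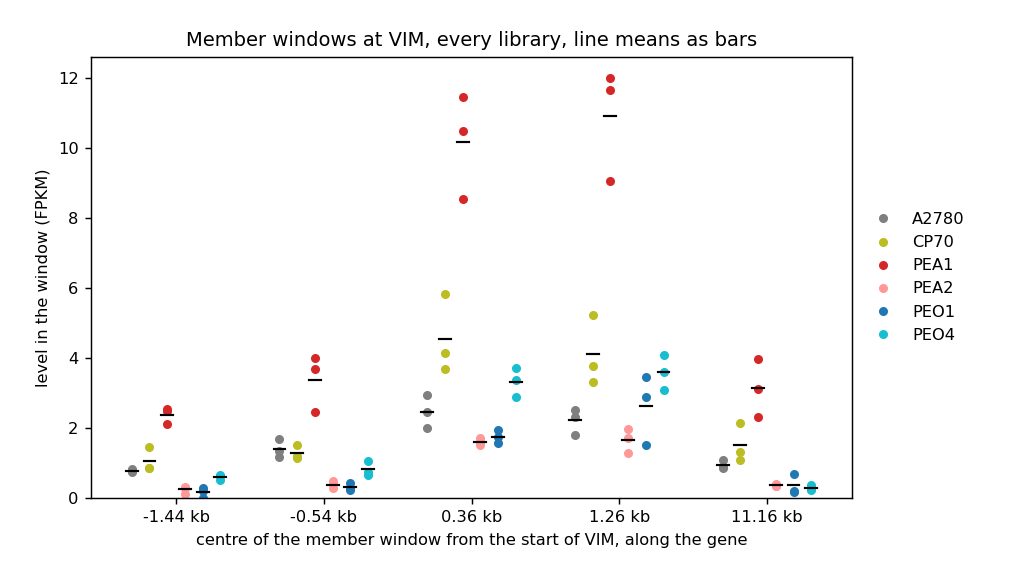
Level of every library, in FPKM, in the 5 member windows at VIM, placed by the distance of their centre from the start of the gene along its direction. Points are libraries, short bars are line means and colours mark the line. PEA1 is the highest line in all 5, reaching 12 FPKM at 1.26 kb, and CP70 or A2780 is next.

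Other mesenchymal genes contributed little. Of 17 genes in that list with a window in the body or within 50 kb of the start, 3 had a member there. Among them were VIM and the repressor gene ZEB2, whose window measured 3.43, 3.49 and 2.40 FPKM in PEA1 and had a PEO4 mean of 1.46 FPKM. No gene of this list had a member at 3 times or more. Over all protein-coding genes, 1159 of 17818 (6.50%) had a member, and 1.28% of the gene-window links were to members. For the mesenchymal list 7 of 134 links (5.22%) were, 5 of them at VIM.

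Of the Müllerian and serous lineage list, 4 of 18 genes had a member, among them PAX8, MSLN and HOXA9. The PAX8 members lay at the end of the gene, the further one 60.9 kb from its start. The first (chr2:113975101-113976100) measured 4.23, 5.36 and 3.69 FPKM in PEA1 with a PEA2 mean of 1.40 FPKM, whereas at the PAX8 promoter PEO1 was the highest line at 7.90 FPKM. The 4 MSLN members lay 16.9 to 48.8 kb from its start within the raised bin of chromosome 16. The HOXA9 member lay 45.4 kb from its start, at the promoter of HOXA3. None of the 13 windows that hold a main start of this list was a member.

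Receptor tyrosine kinases had the most members of any list, 13 of 333 links (3.90%) at 9 of 28 genes: EGFR, FGFR4, IGF1R, PDGFRB, AXL, EPHA2, EPHB2, ROR1 and NTRK3. IGF1R, the receptor of insulin-like growth factors, had 4. In its leading window, 128 kb into the gene (chr15:99319501-99320500), PEA1 measured 5.38, 5.92 and 3.69 FPKM, 6.46 times the PEO4 mean of 0.774 FPKM. An EGFR window 60.4 kb into the gene measured 4.04, 2.99 and 2.83 FPKM in PEA1 against a PEA2 mean of 0.913 FPKM. Windows of ROR1 (3.27, 3.49 and 1.92 FPKM) and NTRK3 (3.24, 3.27 and 2.30 FPKM) had CP70 as the next line, at 0.636 and 0.60 FPKM. The AXL window, 0.628 kb upstream of the start, measured 2.69, 2.68 and 2.35 FPKM against 1.16 FPKM in A2780. None of the 24 windows that hold a receptor's main start was a member. The genes of this list had a median of 10.5 windows each, against 6 over all protein-coding genes, so that they offered more windows to the rule.

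For the signalling lists, the counts stand beside 6.50% of genes and 1.28% of links over all protein-coding genes, with no test. The WNT list had 3 of 27 genes (WNT2B, TCF7L1 and TCF7L2), with 1.76% of links. The TGF-beta and BMP list had 3 of 25 (TGFB1, TGFB2 and ACVR1), with 2.56%, and 3 of the 4 windows near TGFB1 lay in its neighbour CCDC97. In an intron window of ACVR1, the gene of a BMP type I receptor, PEA1 measured 2.60, 2.49 and 1.25 FPKM and A2780 had a mean of 0.445 FPKM. The NOTCH list had 1 of 17, with 0.538% of links, and NOTCH1 was at 4.10, 3.68 and 2.59 FPKM in PEA1 and a CP70 mean of 0.973 FPKM. The YAP and TEAD list had AXL alone of 14 genes, with 0.725% of links.

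No member was linked to the 21 epithelial genes, the 14 genes of AP-1 factors, the 12 leukocyte genes or the 8 endothelial genes with a window. Over all protein-coding genes the shares were 6.50% of genes and 1.28% of links. The leukocyte and endothelial lists had only 81 and 47 links, so that a count of 0 was near these shares and nothing is read from it. Of 27 genes of the platinum response, 1 had a member: ERCC2, a helicase of nucleotide excision repair, with an intergenic window 44.4 kb from its start at 3.08, 3.46 and 2.69 FPKM in PEA1 and 1.04 FPKM in CP70. The fibroblast and mesothelial list had 2 of 11 genes. They were PDGFRB, named above, and COL1A1, the gene of a type I collagen chain, whose leading window, 17.3 kb upstream, measured 2.92, 2.77 and 1.77 FPKM in PEA1 and 0.816 FPKM in PEO1.

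The contrast of PEA2 with PEA1 was part of the choice. In a limma fit over 66103 windows, 455 of the 1164 members were lower in PEA2 by more than 2 on the log2 scale at an adjusted p under 0.001, against 1.42% of all windows tested, and nothing is read from this.

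The other pairs of lines were not used against each other by the rule, although it capped the level of both. In the pair of A2780 and its derivative CP70, 127 members passed the filter of a mean over 1 FPKM. Of these 0 were higher and 0 lower in CP70 by limma at a log2 fold change over 2 and adjusted p under 0.001, against 0.428% and 0.369% of all 37128 windows tested. At an unadjusted p under 0.05 there were 64, and edgeR and DESeq2 on recovered reads also gave 0 and 0. Over all 37128 windows edgeR called 216 higher and 153 lower, and DESeq2 70 and 257. Log2 fold changes in this pair were centred at 0.59 over all windows tested and 0.53 over the members tested, and once each library was centred on its median 13 members had an unadjusted p under 0.05. The share of all windows at the unadjusted limit was not counted, so the 64 and the 13 are no result about the members. At a log2 fold change over 1 and adjusted p under 0.05, 1 member was higher and 1 lower, against 11.4% and 1.1% of all windows. The cap on both levels limited which members could pass.

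In the pair of PEO1 and PEO4, 144 members passed the filter, and 3 were higher and 3 lower in PEO4 at the strict limits, against 2.72% and 5.78% of 77654 windows tested. At the looser limits 17 were higher and 8 lower, against 9.63% and 23.6%. The direction depended on scaling: with each library centred on its median, which moved the median log2 fold change of all windows from -0.30 to 0.04, 6 members were higher and 0 lower, and quantile normalization gave 5 and 0. Over all windows tested the same centring turned 2109 higher and 4485 lower into 3255 and 2523, and in the A2780 pair it turned 159 and 137 into 40 and 234. DESeq2 on recovered reads gave 9 and 2, and edgeR 3 and 3. Over all 77654 windows tested, quantile normalization gave 3165 higher and 2595 lower, DESeq2 3390 and 3364, and edgeR 2300 and 5224. The members that passed are those with the highest levels in these lines.

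The window with the largest change lay at the end of LY6E, the gene of a GPI-anchored cell-surface protein (chr8:144105301-144106300). PEO1 measured 0.304, 0.611 and 1.00 FPKM and PEO4 4.71, 4.22 and 4.23 FPKM, without overlap, and PEA1 10.3, 9.50 and 7.62 FPKM. The log2 fold change on the scale of log2(FPKM + 0.1) was 2.72 ± 0.27 (SE; limma, adjusted p = 4.46e-11). An intron window of FBXO32, encoding a substrate receptor of a ubiquitin ligase, measured 0.202, 0.349 and 0.669 FPKM in PEO1 and 2.73, 1.82 and 1.99 FPKM in PEO4, a log2 fold change of 2.26. A window 117 kb from VEGFA measured 0.708, 0.436 and 0.111 FPKM in PEO1 and 2.09, 2.16 and 1.54 FPKM in PEO4 (2.16). PEO4 was the line next to PEA1 in all 3 of these windows.

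Of the 3 windows that were lower in PEO4, an intron window of IGFN1 (chr1:201160801-201161800) measured 3.95, 2.53 and 2.34 FPKM in PEO1 and 0.814, 0.336 and 0.548 FPKM in PEO4, a log2 fold change of -2.22. A window 336 kb from PABPC4L measured 1.52, 2.09 and 1.67 FPKM and then 0.291, 0.192 and 0.498 FPKM (-2.18). The 5′ UTR window of RAP1GAP2 measured 1.52, 1.57 and 2.23 FPKM in PEO1 and 0.407, 0.528 and 0.149 FPKM in PEO4 (-2.10). In each the PEO1 and PEO4 libraries did not overlap. All 6 called windows passed the filter on low values through the line in which they were high, since the mean of the other line was under 1 FPKM in each, so the counts of calls support nothing. These 3 calls were lost under median centring and quantile normalization (log2 fold changes of -1.87 and -1.87 at IGFN1, -1.83 and -1.87 at PABPC4L and -1.76 and -1.77 at RAP1GAP2). With the median of the 5 Mb bin removed, the log2 fold change was 1.29 at LY6E, 1.01 at the VEGFA window, -1.35 at IGFN1 and -1.54 at PABPC4L, below the limit in each. With a pseudocount of 0.5, LY6E alone was called.

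The difference between the pairs was tested in 1 fit over their 12 libraries, an analysis added after the data had been seen. Of 104 members tested, 1 had a larger and 2 a smaller fold change in the PEO pair than in the A2780 pair, against 1.84% and 6.28% of 72415 windows. The difference was 2.13 on the log2 scale at LY6E (limma, adjusted p = 2.17e-05), -2.61 at IGFN1 (6.70e-07) and -3.0 at RAP1GAP2 (1.84e-07). The log2 change of CP70 against A2780 in these windows was 0.59, 0.40 and 0.90. The filter was again a mean over 1 FPKM, here over the 12 libraries. All 3 windows had been called in the PEO pair, so the limit given there holds here too and these calls support nothing about the members. The call depended on scaling: with the 5 Mb bin median removed in each pair the difference was 1.12 at LY6E and -1.48 at IGFN1, and under median centring and quantile normalization -1.94 and -1.80 at IGFN1, below the limit in each. At RAP1GAP2 these alternatives gave -2.33 (median centring), -2.03 (quantile normalization) and -2.49 (bin median removed), all called. With a pseudocount of 1 none of the 3 was called.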

How the data were processed

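ATAC-seq values of 18 libraries (6 lines, 3 libraries each) were taken from 1 table deposited by the authors as FPKM over 1 kb windows. Per the study's methods, duplicates were removed with Picard, reads were aligned to hg19 with Bowtie2, keeping unique alignments, blacklisted and mitochondrial reads were dropped, reads were counted per window and divided by length and depth, and versions and any shift of read ends are not given in the sources used here. Because all windows have 1 length, the deposited FPKM values are in effect RPM, and windows overlap their neighbours by 100 bp. The table holds selected windows with signal and no replicate was pooled. Window numbering matched GRCh37 chromosome lengths in 23 of 23 steps. The values were whole multiples of 1 read in 100% of windows in every library (within 0.02 of a whole read), which gave the reads used for edgeR and DESeq2. The reads have no molecular identifiers, and the intervals given for shares cover counting error only.

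Windows were annotated by their centre from GENCODE 44 lifted to GRCh37, protein-coding basic transcripts. Genes were linked to windows in the body or within 50 kb of the start. Besides RUNX, KLF, E-box and AP-1, the motifs searched on both strands were TEAD GGAATG, ETS CCGGAA, FOX TGTTTAC, SOX AACAAAG, the GATA factors AGATAAG, the insulator protein CTCF CNAGGTGGC, CEBP TTGCGCAA, ZEB CAGGTG, GRHL AACCGGTT, NFI TTGGCA, SP GGGCGG, STAT TTCCNGGAA, nuclear receptor AGGTCA, HOX TAATTA and POU ATGCAAAT. Matches of different motifs may overlap. Some genes, motifs and sequences are not reported here.

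Pairs of lines were compared with limma 3.58.1 (R 4.3.3; empirical Bayes with trend) on log2(FPKM + 0.1), over windows with a mean over 1 FPKM, with Benjamini-Hochberg adjustment over all windows tested, and calls at a log2 fold change over 2 and adjusted p under 0.001. limma with a trend stood in for the voom fit of the study, because the table holds normalized values. edgeR 4.0.16 and DESeq2 1.42.0 on the recovered reads were alternatives. Over all windows edgeR called 216 and 153 in the A2780 pair and 2300 and 5224 in the PEO pair (higher and lower). The labels do not say that the 3 libraries of a line came from separate cultures, so that p-values measure the spread between libraries, which may be technical. Tests were tried on simulated data.

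The windows named were the 10 largest ratios without overlap between libraries (0.1 FPKM added to both means, windows within 10 kb of one taken passed over), the 5 highest levels, the 5 leading promoters, the longest runs (4, because 4 tied), the genes with most members (6, with a tie), members of each gene list, the 3 nearest the limit on either side and those called in the PEO pair. For list genes more members are named than the leading one, chosen after their values were seen. The members, lists and motifs were chosen with earlier results of these data known.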

Additional observations from a re-analysis of the deposited data

Results flagged for a closer look

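The fold change of PEO4 against PEO1 differed from that of CP70 against A2780 at 3 members by a test of the difference itself: by -2.61 on the log2 scale at IGFN1, by 2.13 at LY6E and by -3.0 at RAP1GAP2. All 3 had also been called in the PEO pair, where each passed the filter through the line in which it was high. These calls therefore support nothing about the members. In alternatives chosen after the data had been seen, the difference at IGFN1 was below the limit of 2 in each of 4, from -1.94 (median centring) to -1.48 (5 Mb bin median removed). At LY6E it was 2.80 under median centring and 2.60 under quantile normalization, but 1.12 with the bin median removed and 1.39 with a pseudocount of 1. At RAP1GAP2 it was from -2.49 to -2.03 in 3 of these and -1.61 with a pseudocount of 1. Outside the autosomes, which alone entered the choice, 2 windows of chromosome X met the same limits, an intron window of STARD8 (PEA1 mean 2.22 FPKM, next line 0.507 FPKM) and a window at the end of EFNB1 (2.81 FPKM, next line 0.993 FPKM).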

How the results depend on the processing

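The number of members was 2101 after quantile normalization (956 shared), 1717 after median centring (923 shared), 1111 and 780 with the 5 Mb bin median or its departure from the genome removed (727 and 662 shared), 527 at 3 times or more, 187 over 4 FPKM, 358 with the lowest PEA1 library against the highest other library, and 953 to 1450 with 1 library left out, the highest without PEA1 replicate 3. The 3 bins with the most members then held 29 (bin median removed) and 32 (departure removed). Shallow libraries of PEO1 limit low values most.

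The promoter share was 7.73% with all basic transcripts, 2.28% at 3 times or more and 3.03% with the bin median removed, the intron share 58.8% in the first and the second of these, and the intergenic share 23.1% in the first. In the central 500 bp, RUNX, AP-1 and E-box matches were in 19.2%, 19.6% and 33.8% of members, since the sequence is shorter. Genes with a member numbered 545 by gene body, 272 within 10 kb and 562 at 3 times or more.

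In the A2780 pair 1 and 1 members passed the looser limits. In the PEO pair members higher and lower in PEO4 numbered 17 and 8 at the looser limits, 1 and 0 with a pseudocount of 0.5, 0 and 0 with 1, 19 and 6 without a filter (1164 tested), 6 and 0 after median centring, 5 and 0 after quantile normalization, 2 and 1 with the bin median removed and 9 and 2 by DESeq2. With 1 library left out they numbered 2 to 5 (5 without PEO1 replicate 2) and 0 to 3 (0 without PEO1 replicate 1, 1 without PEO1 replicate 2 or 3 or PEO4 replicate 2). Over all windows tested, higher and lower calls numbered 792 and 1770 with a pseudocount of 0.5, and 216 and 617 with 1. They numbered 2224 and 4651 without a filter (89428 tested) and 2267 and 1526 with the bin median removed. With 1 library left out they numbered 1889 to 2244 and 4182 to 4756. A filter at a mean over 5 FPKM left no member to test. The cause of these changes was not tested. The 6 named windows of this pair were called again in 66 of 94 alternatives, and no value reversed.

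Replicate numbers did not pair the libraries: same-numbered deviations correlated at -0.41, -0.17 and -0.04 in the A2780 pair and 0.02, 0.04 and 0.04 in the PEO pair. With the replicate block, 0 and 0 members were called in the A2780 pair and 3 and 3 in the PEO pair.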
